A study of Mus musculus with 6 samples.

Results

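The genes described are 66 rows, of 55335 in each expression table, that encode proteins of the spliceosome and the SR splicing factors. They were taken by symbol: names that start with Snrp, Snrnp, Sf3a, Sf3b, U2af, Prpf or Srsf, the genes Lsm1 to Lsm8, and Rsrp1 and Rbbp6, which were added by name. Names marked as pseudogenes by -ps were left out. By family they form 28 snRNP core genes, 12 genes of the U2 branch (Sf3a, Sf3b and U2af), 13 Prpf genes, 11 SR genes (Srsf) and the 2 added genes. RNA came from mouse embryos at the 4-cell stage, in 2 groups of 3 libraries. The group called DRB was placed in KSOM medium with 20 µM of DRB, a compound that stops RNA polymerase II from elongating transcripts, from 6 h after fertilization for 20 h. Those embryos were then washed and cultured for 26 h in fresh medium. For the control group, called Con, no vehicle is named. Strain, genotype, parental age and the number of embryos behind each library were not stated in the labels, so whether replicates are separate matings or cultures is not known, and p-values measure the spread between these libraries only.

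The spliceosome removes introns in steps carried out by small nuclear ribonucleoproteins (snRNPs), each an snRNA with proteins. A ring of Sm proteins encloses the U1, U2, U4 and U5 snRNAs, and a ring of Lsm proteins binds U6. U1 recognizes the start of the intron, U2 with its SF3A and SF3B subunits binds the branch site, U2AF reads the end of the intron, and the U4/U6.U5 tri-snRNP, to which many Prpf proteins belong, joins before catalysis. SR proteins bind exons through RNA recognition motifs and recruit these particles through domains rich in arginine and serine. In the early mouse embryo, transcripts inherited from the oocyte are replaced by newly made ones during the first cleavages. In such bulk libraries, fewer cells and less RNA per cell cannot be told apart, and gene-level values do not separate isoforms.

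Expression is given as FPKM, fragments scaled to transcript length and to the library's total, so levels can be set side by side between genes. The estimated depth was 21900000 to 24400000 fragments per library. Pearson's r of log2 values across tested genes was 0.935 to 0.944 among Con libraries, 0.909 to 0.937 among DRB libraries and 0.869 to 0.915 for pairs across groups, where each Con library had its lowest r with DRB replicate 1. Genes of the mitochondrial genome took 12.2% to 20.0% of FPKM in Con and 23.9% to 26.4% in DRB. Of 13 early embryo markers, 0 of the 12 tested passed limma's test (1 at an unadjusted p below 0.05). Dppa3, a maternal and cleavage-stage gene, stood at 13434 to 24780 FPKM in all libraries. The other tested early embryo markers were far lower, from Carm1 at 0.03 to 2.32 FPKM up to Klf17 at 35.3 to 139 FPKM. Among them Ooep stood at 0.50 to 7.14, Nlrp5 at 2.76 to 7.24 and Gdf9 at 2.09 to 9.49 FPKM. Pou5f1 did not reach the filter, at 0 to 3.58 FPKM. Of 9 cumulus cell markers 2 were tested, Gja1 and Amhr2, and Fshr, Has2, Inha and Ptx3 were at 0 in every library. Amhr2 stood at 17.9, 23.4 and 17.9 FPKM in Con and at 22.8, 19.8 and 28.2 FPKM in DRB (replicates 1 to 3). The summed cumulus level was 213 to 387.1 FPKM in Con and 143.7 to 275.8 FPKM in DRB, most of it Gja1, which cleavage embryos also express. The summed level of 7 sperm markers was 7.30 to 19.1 FPKM and that of 5 blood markers 47.0 to 114 FPKM across both groups.

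Two-sided tests were made with limma on log2(FPKM + 1) over the 11893 genes with at least 1 FPKM in at least 3 libraries, with Benjamini-Hochberg adjustment over all of them. Of the 66 genes 63 were tested, and 3 passed at an adjusted p below 0.05: Rsrp1 and Rbbp6 rose and Prpf31 fell. The share of all tested genes that passed was 2.48%, with 1.53% higher and 0.95% lower. At an unadjusted p below 0.05, 8 of the 63 were higher and 7 lower, against 7.53% and 10.5% of all tested genes (18.1% in either direction). The groups did not overlap for 11 with DRB above and 15 with DRB below, against 9.85% and 13.9% of all tested genes (23.8% either way). The 3 that passed, the 8 higher and the 11 above each include Rsrp1 and Rbbp6, which were added with earlier results of these libraries known. Of the genes taken by the symbol rule, Prpf31 alone passed. With no filter on low values, limma adjusted p were 0.187 for Rsrp1, 0.105 for Rbbp6 and 0.119 for Prpf31, and 6 of all genes passed. Sf3a2, Prpf40b and Srsf12 did not reach the filter. Sf3a2 was at most 0.66 FPKM and Prpf40b at most 1.06 FPKM in any library, and Srsf12 was listed at 0 in all 6.

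**Figure D1:**
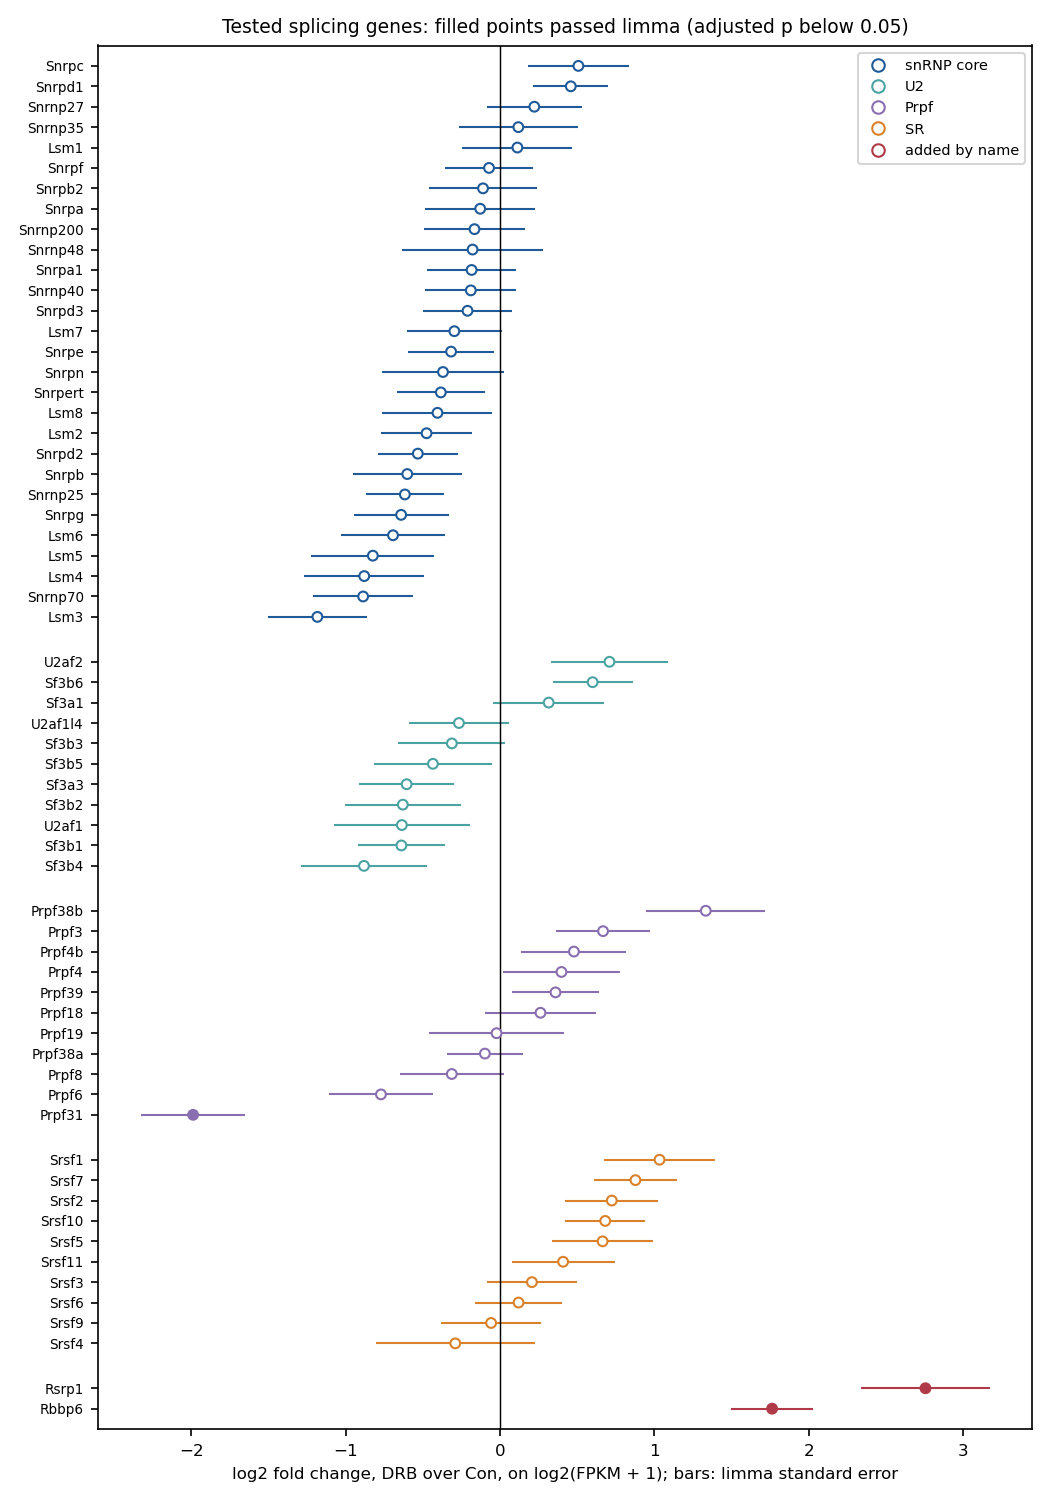
Log2 fold change, DRB over Con, of the tested splicing genes, ordered within each family, with limma standard errors as bars. Filled points are the 3 genes that passed the test (Rsrp1, Rbbp6 and Prpf31); 23 of 28 snRNP core genes lie left of 0 and 8 of 10 SR genes right of it.

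Rsrp1, which encodes an arginine- and serine-rich protein, had the largest change of the 63. It stood at 48.1, 26.4 and 38.3 FPKM in Con (here and below in the order of replicates 1 to 3) and at 504, 166 and 193 FPKM in DRB. All 3 DRB libraries lay above all Con libraries, and DRB replicate 1 was far above the other two. The means were 37.6 ± 10.9 and 288 ± 188 FPKM (SD, n = 3 per group), 7.65 times higher in DRB. The log2 fold change was 2.76 ± 0.42 (SE) with a limma adjusted p of 0.00875. It was 2.26 without DRB replicate 1, with a limma adjusted p of 0.0308. Rsrp1 lies on the plus strand of chromosome 4 (134923592 to 134927671, GRCm38), and no other annotated gene overlaps it.

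Rbbp6, a RING-finger ubiquitin ligase that works with the machinery for cleavage and polyadenylation of pre-mRNA, stood at 65.9, 70.3 and 55.8 FPKM in Con and at 265, 211 and 187 FPKM in DRB. The 3 libraries of each group were close to each other and far from those of the other group. The means were 64.0 ± 7.44 and 221 ± 40.3 FPKM, 3.45 times higher in DRB, with a log2 fold change of 1.76 ± 0.26 (SE) and a limma adjusted p of 0.00855. Without DRB replicate 1 the log2 fold change was 1.62 (limma adjusted p 0.0364). Rbbp6 lies on the plus strand of chromosome 7 (122965686 to 123002557, GRCm38). The sense intronic RNA Gm20274 inside it went the other way, from 30.9, 43.2 and 53.1 FPKM in Con to 30.5, 14.2 and 11.2 FPKM in DRB. Rsrp1 and Rbbp6 were both chosen with earlier results of these libraries known, so their rise is not independent evidence about splicing genes as a class.

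Prpf31 was the single gene of the 63 that passed the test as lower in DRB. It ties the U4/U6 snRNP to U5 in the tri-snRNP and is mutated in a form of retinitis pigmentosa. It stood at 33.8, 31.2 and 23.3 FPKM in Con and at 5.60, 7.01 and 7.26 FPKM in DRB. The DRB libraries lay close together, all far below the lowest Con library. The means were 29.4 ± 5.44 and 6.62 ± 0.90 FPKM, 4.44 times lower in DRB. The log2 fold change was -1.99 ± 0.34 (SE) with a limma adjusted p of 0.0158. The size of the change held in each fit without 1 library, but the adjusted p passed in 3 of 6: it was 0.057 without Con replicate 1, 0.069 without Con replicate 2 and 0.0574 without DRB replicate 1. Prpf31 lies on the plus strand of chromosome 7 (3629985 to 3642486, GRCm38), and the transcript that overlaps it on the other strand, Gm15927, was at most 0.27 FPKM.

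**Figure D2:**
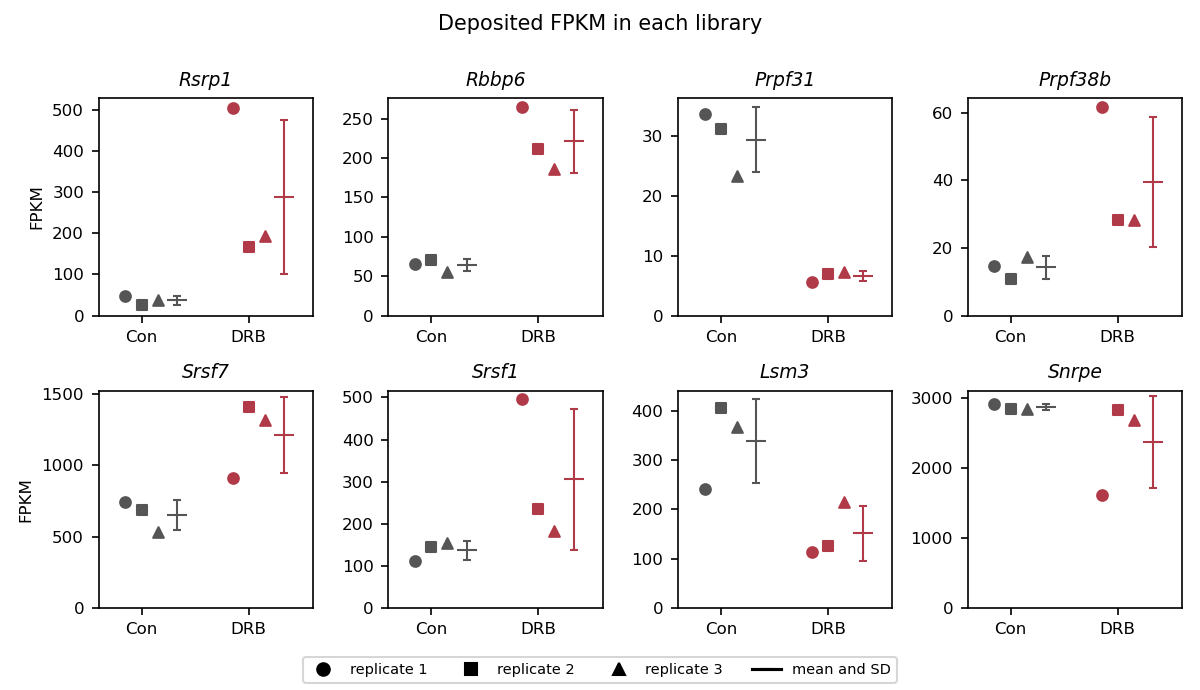
Deposited FPKM of 8 splicing genes in each of the 3 Con and 3 DRB libraries (linear axes from 0; symbols mark the replicate number, bars the mean and SD). Rsrp1 and Rbbp6 are higher and Prpf31 lower in every DRB library, while for Snrpe the low value is that of DRB replicate 1, at 1620 FPKM.

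Promoter stretches of these 3 genes are shown with those of 2 SR genes and of Snrnp70, a core gene with a negative fold change, to set families with fold changes of mostly opposite sign side by side. Each is the last 100 bases before the RefSeq start that lie in no annotated exon of the gene, from 5′ to 3′ on the gene's strand. Capitals mark matches, on either strand, to 7 motifs: the CCAAT box, the TATA box (TATAAA), the GC box (GGGCGG), an ETS-type site (CCGGAAG), an NRF1-type site (TGCGCA), a CRE-type site (TGACGT) and an E-box (CACGTG).
Rsrp1 (plus strand, chr4:134923492-134923591): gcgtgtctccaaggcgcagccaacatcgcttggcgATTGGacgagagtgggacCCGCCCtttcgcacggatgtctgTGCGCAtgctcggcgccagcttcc
Rbbp6 (plus strand, chr7:122970464-122970563): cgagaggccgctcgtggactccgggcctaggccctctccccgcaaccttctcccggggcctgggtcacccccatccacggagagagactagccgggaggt
Prpf31 (plus strand, chr7:3629885-3629984): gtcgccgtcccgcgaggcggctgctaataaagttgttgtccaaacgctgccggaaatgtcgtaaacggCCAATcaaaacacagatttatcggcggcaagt
Srsf7 (minus strand, chr17:80207308-80207407): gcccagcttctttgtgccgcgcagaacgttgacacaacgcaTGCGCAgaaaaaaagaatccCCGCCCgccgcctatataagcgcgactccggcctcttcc
Srsf1 (plus strand, chr11:88047273-88047372): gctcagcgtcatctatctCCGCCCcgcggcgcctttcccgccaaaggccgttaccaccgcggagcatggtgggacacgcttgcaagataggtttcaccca
Snrnp70 (minus strand, chr7:45395743-45395842): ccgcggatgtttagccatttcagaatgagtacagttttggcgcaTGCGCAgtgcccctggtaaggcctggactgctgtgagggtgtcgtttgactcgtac
The sequences come from RefSeq on GRCm38.p6. The stretch of Rsrp1 holds 3 matches, that of Srsf7 holds 2, those of Prpf31, Srsf1 and Snrnp70 hold 1 each, and that of Rbbp6 holds 0. The stretch of Rbbp6 lies inside the annotated gene, which begins at 122965686, so it precedes an internal start and not the first annotated one.

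Over the 100 bases directly before the RefSeq start, 55 of the 66 genes matched the table, with 69 promoters among them. The box GGGCGG, on either strand, was present in 13 of 14 SR promoters, in 12 of 28 snRNP core, 5 of 11 U2 and 6 of 14 Prpf promoters, and in 24.7% of all 32851 promoters. CCGGAAG was present in 6 of 11 U2 promoters, 2 of 14 SR promoters and 4.52% of all promoters. CCAAT was present in 6 of 14 Prpf, 2 of 14 SR and 18.9% of all promoters, and TATAAA in 3 of the 69 against 5.56% of all. TGCGCA was present in 11 of the 69 (3.84% of all), TGACGT in 9 (4.09%) and CACGTG in 3 (3.17%). Some of these promoters belong to the same gene and overlap. The base of all promoters covers 27025 genes, where 11893 were tested, so it includes genes with little or no expression here. Promoters of the tested genes alone were not counted, so the gap from all promoters is not particular to splicing genes. These matches are a description of letters in a window, not of factor binding.

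The SR family was shifted upward without any single gene passing the test. Of 11 Srsf genes 10 were tested with limma and 0 passed. At an unadjusted limma p below 0.05, 4 were higher (Srsf1, Srsf2, Srsf7 and Srsf10) and 0 lower, against 7.53% and 10.5% of all tested genes. A positive log2 fold change was seen for 8 of the 10, against 44% of all tested genes, and the median was 0.54, where that of all tested genes was -0.09. Summed over the family, Srsf genes made up 0.164%, 0.143% and 0.163% of all FPKM in Con and 0.30%, 0.240% and 0.216% in DRB. The groups did not overlap in this share, nor in that of FPKM outside the mitochondrial genes, which was 0.187%, 0.176% and 0.204% in Con and 0.404%, 0.316% and 0.294% in DRB.

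Srsf7, the most abundant Srsf gene, stood at 739, 686 and 535 FPKM in Con and at 911, 1406 and 1317 FPKM in DRB. Every DRB library was above every Con library, and DRB replicate 1 was the lowest of the 3. The log2 fold change was 0.88 ± 0.27 (SE) with a limma adjusted p of 0.115, and 1.07 without DRB replicate 1 (limma adjusted p 0.0792). With mitochondrial genes left out of the totals the gene passed (limma adjusted p 0.0373). Over the alternatives its adjusted p ranged from 0.0373 to 0.357.

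Srsf1, the founding SR protein, stood at 111, 145 and 155 FPKM in Con and at 497, 236 and 184 FPKM in DRB. The groups did not overlap, but DRB replicate 1 carried much of the difference: the log2 fold change of 1.03 ± 0.36 (SE; adjusted p by limma 0.157) was 0.62 without it. The antisense transcript Gm11508 overlaps Srsf1 and stood at 10.2 to 42.2 FPKM. Srsf2, which binds exonic enhancers, stood at 257, 323 and 458 FPKM in Con and at 757, 453 and 503 FPKM in DRB (log2 fold change 0.72, limma adjusted p 0.234). Its groups overlapped, by Con replicate 3 and DRB replicate 2. Srsf10, an SR protein that represses splicing when dephosphorylated, was the most even within groups, at 53.4, 52.9 and 64.9 FPKM in Con and 90.7, 95.3 and 89.4 FPKM in DRB. Its log2 fold change was 0.68 ± 0.26 (SE; adjusted p by limma 0.194), and 0.69 without DRB replicate 1.

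The remaining Srsf genes differed little or unevenly. Srsf5 stood at 198, 101 and 85.4 FPKM in Con and 194, 199 and 179 FPKM in DRB, so the high Con replicate 1 overlapped the DRB values. Srsf3 and Srsf11 had log2 fold changes of 0.21 and 0.41. Srsf6, Srsf9 and Srsf4, the 3 with the lowest fold changes, had log2 fold changes of 0.12, -0.06 and -0.29 with limma adjusted p of 0.875, 0.95 and 0.831. The signs of all 3 turned in some settings, that of Srsf9 under each of the scalings tried. Srsf4 was at 6.24, 7.04 and 7.18 FPKM in Con and at 12.6, 4.84 and 2.28 FPKM in DRB, where the 3 libraries lay on both sides of Con.

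Fold changes in the snRNP core were mostly negative, by an amount that depended on single libraries of both groups. All 28 genes were tested with limma and 0 passed; at an unadjusted p below 0.05 there were 4 lower (Lsm3, Lsm4, Snrnp25 and Snrnp70) and 0 higher, where 10.5% of all tested genes were lower. Without DRB replicate 1 there were 1 lower and 1 higher. Of the 28, 23 had a negative log2 fold change, against 56% of all tested genes. The median was -0.31, or -0.21 relative to all tested genes, and the relative value was -0.07 without DRB replicate 1. Without Con replicate 1 the median was -0.17, or -0.11 relative to all tested genes. The groups did not overlap for 9 with DRB below and 1 with DRB above, against 13.9% and 9.85% of all tested genes. Summed, the core genes made up 0.851%, 0.831% and 0.834% of all FPKM in Con and 0.545%, 0.751% and 0.723% in DRB. On this base each DRB library was below each Con library. Of FPKM outside the mitochondrial genes, whose share differed between the groups, the core made up 0.969%, 1.02% and 1.04% in Con and 0.734%, 0.987% and 0.982% in DRB. There the groups overlapped, and DRB replicate 1 alone was below all Con libraries.

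In the Sm ring, 7 of 8 members had negative fold changes, with a median of -0.34. Snrpe, the most abundant splicing gene here, stood at 2922, 2852 and 2855 FPKM in Con and at 1620, 2831 and 2686 FPKM in DRB. DRB replicates 2 and 3 were just below the Con libraries, and the log2 fold change of -0.32 (limma adjusted p 0.609) was -0.06 without DRB replicate 1. Snrpg, its neighbour in the ring, stood at 1630, 1481 and 1333 FPKM in Con and at 599, 1289 and 1100 FPKM in DRB (log2 fold change -0.64, limma adjusted p 0.303). Here too all DRB values were below Con and replicate 1 was the lowest. Snrpd1 was the exception in the ring, at 659, 663 and 593 FPKM in Con and 726, 999 and 928 FPKM in DRB. Its groups did not overlap (log2 fold change 0.46 ± 0.24 SE, adjusted p by limma 0.352).

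The processed pseudogene Snrpert falls under the symbol rule. Its level was 12.4% to 13.8% of that of Snrpe in all 6 libraries, so it followed the parent gene closely. Reads of near-identical sequences cannot be assigned with certainty, and its log2 fold change of -0.38 (limma adjusted p 0.53) is not a separate observation. Snrpn shares its locus with Snurf in the same orientation, and its values, 28.0 to 85.8 FPKM in Con and 30.0 to 42.9 FPKM in DRB, cannot be fully separated from those of Snurf.

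The Lsm ring had a median of -0.58, or -0.31 without DRB replicate 1, with 7 of 8 members negative. Lsm3, shared by the nuclear ring on U6 and the cytoplasmic ring that promotes mRNA decay, stood at 242, 407 and 367 FPKM in Con and at 113, 125 and 215 FPKM in DRB. All DRB values were below all Con values. The log2 fold change was -1.18 ± 0.32 (SE) with a limma adjusted p of 0.0818, and -1.01 without DRB replicate 1. Lsm4 stood at 52.5, 48.2 and 23.3 FPKM in Con and 14.4, 23.7 and 26.0 FPKM in DRB, where Con replicate 3 lay among the DRB values (log2 fold change -0.88, limma adjusted p 0.26). Lsm5 stood at 376, 437 and 476 FPKM in Con and 115, 342 and 356 FPKM in DRB, and its log2 fold change of -0.82 was -0.29 without DRB replicate 1. Lsm8, specific to the nuclear ring, and Lsm1, specific to the cytoplasmic ring, had log2 fold changes of -0.40 and 0.11 (adjusted p by limma 0.609 and 0.908). Without DRB replicate 1 these were 0.04 and 0.19, so the sign of Lsm8 turned. The level of Lsm1 was much the lower: 11.4 ± 1.39 FPKM in Con, where Lsm8 had 229 ± 10.2 FPKM.

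Among proteins specific to single snRNPs, those of U1 did not move together. Snrnp70, the U1-70K protein, stood at 80.3, 46.5 and 59.4 FPKM in Con and at 24.3, 39.8 and 34.8 FPKM in DRB, with no overlap (log2 fold change -0.89 ± 0.32 SE, adjusted p by limma 0.179). Snrpc, the U1-C protein at the 5′ splice site, had the highest fold change of the core. It stood at 413, 210 and 177 FPKM in Con and 341, 315 and 412 FPKM in DRB, so Con replicate 1 lay just above the highest DRB value (log2 fold change 0.51, limma adjusted p 0.455). Snrpa, the U1-A protein, stood at 73.6, 73.9 and 73.9 FPKM in DRB, inside the wide Con range of 56.8 to 144 FPKM. The U2 proteins Snrpa1 and Snrpb2 had log2 fold changes of -0.18 and -0.11, which were 0.10 and 0.32 without DRB replicate 1. In the tri-snRNP, the helicase gene Snrnp200 and the U5 gene Snrnp40 had log2 fold changes of -0.16 and -0.19, and Snrnp27 of 0.22 (limma adjusted p 0.767 to 0.852 for the 3). Of the minor spliceosome, Snrnp25 stood at 155, 192 and 165 FPKM in Con and 99.3, 105 and 130 FPKM in DRB, with no overlap (log2 fold change -0.62, limma adjusted p 0.232).

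**Figure D3:**
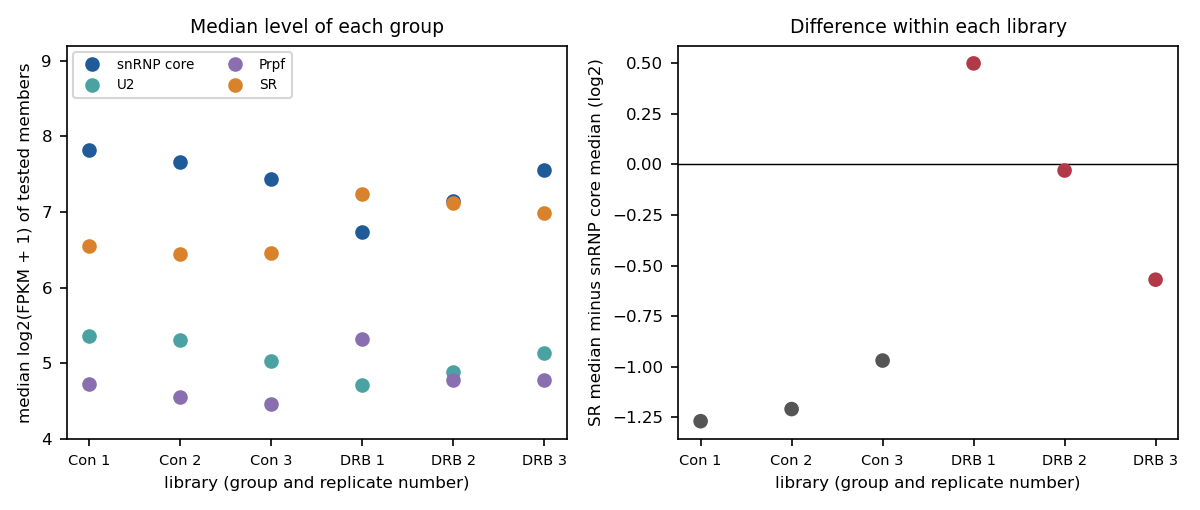
Left, median log2(FPKM + 1) of the tested members of each family in each library; right, the SR median minus the snRNP core median within each library. The difference is -1.27 to -0.97 in Con and -0.57 to 0.50 in DRB, so every DRB library lies above every Con library.

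Within single libraries, where scaling between libraries has no part, the SR median lay 1.27, 1.21 and 0.97 below the core median on the log2 scale in Con. In DRB the SR median minus the core median was 0.50, -0.03 and -0.57. The spread among DRB libraries was wide, but each of them lay above each Con library. The level of Srsf7 was 25.3%, 24.1% and 18.7% of that of Snrpe in Con and 56.2%, 49.7% and 49.0% in DRB. For this pair too each DRB library lay above each Con library, but the order within Con was the reverse. Both genes count in those medians, the pair was not planned in advance, and its ratio was not tested.

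DRB replicate 1 was the lowest of the 3 DRB libraries for 21 of 28 core genes, where it was the lowest for 30.1% of all tested genes. It was the highest for 7 of 10 SR genes, against 45.1% of all tested genes. Protein-coding genes whose longest transcript is under 1000 bases were low as a class in this library. Their median deviation from the mean of all libraries was -0.48 on the log2 scale, and for genes of 4000 to 8000 bases it was 0.29. For genes of 1000 to 2000 bases it was 0.34, 0.15 and -0.05 in Con and -0.14, -0.10 and -0.10 in DRB. The core genes are short, with a median longest transcript in that range, at 1700.5 bases, against 3294 bases for the SR genes. Without DRB replicate 1 the core median was -0.23 with 20 of 28 negative, and the SR median was 0.32 with 7 of 10 positive; the median of all tested genes was then -0.16, so that the medians relative to it were -0.07 and 0.48. Removing each library's trend on transcript length, an alternative added once the data had been seen, the core median was -0.20 with 19 of 28 negative, and the SR median was 0.62 with 9 of 10 positive. The median of all tested genes was then -0.01.

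**Figure D4:**
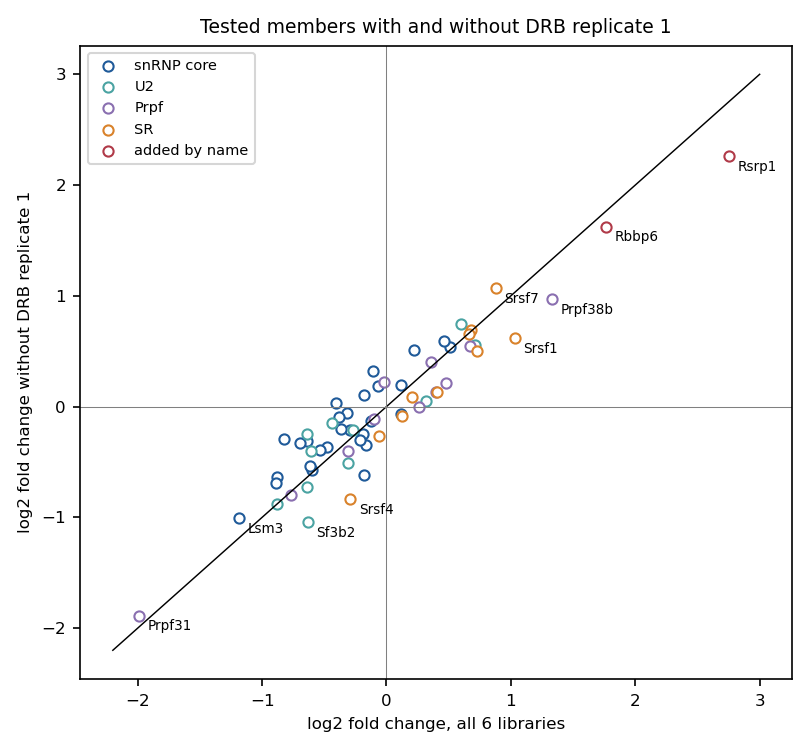
Log2 fold change of the tested splicing genes with all 6 libraries (x axis) and without DRB replicate 1 (y axis), with the line of equal values. Rsrp1, Rbbp6 and Prpf31 stay far from 0 on both axes (without replicate 1 at 2.26, 1.62 and -1.89), and many snRNP core genes lie above the line.

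In the U2 branch 11 of 12 genes were tested with limma and 0 passed. At an unadjusted limma p below 0.05, 1 was higher and 1 lower, against 7.53% and 10.5% of all tested genes. In all 8 of the 11 were negative, with a median of -0.43, or -0.34 relative to all tested genes. Without DRB replicate 1 the median was -0.25, or -0.09 relative to all tested genes. Without Con replicate 1 it was -0.21, or -0.15 relative to all tested genes. Sf3b1, the largest SF3B subunit, which clamps the branch site, stood at 246, 142 and 199 FPKM in Con and at 138, 104 and 129 FPKM in DRB. The highest DRB value lay just under the lowest Con value (log2 fold change -0.64 ± 0.28 SE, adjusted p by limma 0.263). Sf3b6, the small subunit that contacts the branch site adenosine, went the other way, at 273, 378 and 314 FPKM in Con and 396, 496 and 578 FPKM in DRB. Its groups did not overlap either (log2 fold change 0.60 ± 0.26 SE, adjusted p by limma 0.252). Sf3b4 stood at 14.1, 6.49 and 7.86 FPKM in Con and 4.42, 3.98 and 4.94 FPKM in DRB, with a log2 fold change of -0.88 (limma adjusted p 0.288). Sf3a1 had a log2 fold change of 0.32 and Sf3a3 of -0.60.

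The U2AF heterodimer genes had fold changes of opposite sign. U2af2, the large subunit that binds the polypyrimidine tract, stood at 4.95, 5.03 and 7.02 FPKM in Con and 12.4, 8.37 and 9.05 FPKM in DRB, with no overlap (log2 fold change 0.71, limma adjusted p 0.357). U2af1, the small subunit that reads the AG at the intron end, stood at 98.4, 36.3 and 44.5 FPKM in Con and 19.9, 45.4 and 45.5 FPKM in DRB (log2 fold change -0.64, limma adjusted p 0.49). DRB replicates 2 and 3 were among the Con values, and the difference rested on Con replicate 1 and DRB replicate 1.

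The Prpf genes were mixed, with 7 of 12 tested members positive and a median of 0.27, which was 0.06 without DRB replicate 1. Beside Prpf31, 0 of the other 11 passed the limma test. At an unadjusted limma p below 0.05, 1 of these was higher and 1 lower, against 7.53% and 10.5% of all tested genes. Prpf38b, a homologue of a yeast factor that acts as the spliceosome is activated, had the highest fold change. It stood at 14.6, 10.7 and 17.4 FPKM in Con and at 61.8, 28.2 and 28.4 FPKM in DRB, with no overlap. The log2 fold change was 1.33 ± 0.38 (SE) with a limma adjusted p of 0.0973, and 0.97 without DRB replicate 1. Prpf4b, a kinase of tri-snRNP proteins, had a log2 fold change of 0.48 (limma adjusted p 0.504), which was 0.21 without DRB replicate 1.

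Of the other Prpf genes of the U4/U6 snRNP and tri-snRNP, 0 passed the limma test, and their fold changes had both signs; their difference from Prpf31 was not tested. Prpf3, of the U4/U6 snRNP, stood at 29.3, 48.7 and 45.6 FPKM in Con and at 76.9, 57.0 and 61.2 FPKM in DRB, all above Con (log2 fold change 0.67, limma adjusted p 0.278). Prpf6, which bridges U5 to U4/U6, stood at 14.8, 15.9 and 19.1 FPKM in Con and at 9.68, 8.45 and 9.69 FPKM in DRB, all below Con (log2 fold change -0.77, limma adjusted p 0.254). Prpf8, the U5 protein at the catalytic centre, stood at 12.8, 13.1 and 13.9 FPKM in Con and 12.0, 9.14 and 10.5 FPKM in DRB, again all below Con (log2 fold change -0.31, limma adjusted p 0.688). Prpf4 had a log2 fold change of 0.40 (limma adjusted p 0.644). Prpf38a, the most abundant Prpf gene, had a log2 fold change of -0.10 (adjusted p by limma 0.886), whose sign turned under median-of-ratios scaling.

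Other splicing genes were taken from 9 lists with 125 rows, of which 123 were tested with limma and 0 passed. At an unadjusted limma p below 0.05, 8 were higher and 9 lower, against 7.53% and 10.5% of all tested genes. The median log2 fold change of the 123 was 0.05. In the list of SR-related and nuclear speckle proteins, 13 of 15 tested members were positive, with a median of 0.42 that was 0.15 without DRB replicate 1. Its most abundant members, the SR-like regulators Rbm39 and Tra2b, had log2 fold changes of 0.31 and 0.50 (adjusted p by limma 0.572 and 0.343). The SR kinases, which phosphorylate SR proteins, had a median of -0.19 over 7 tested members, with Srpk1 at -0.21 and Clk1 at 0.24 (limma adjusted p 0.825 and 0.68). The SMN complex and its partners, which load Sm rings onto snRNAs, had a median of -0.26 with 8 of 12 negative (-0.53 without DRB replicate 1). Its most abundant members were Clns1a, a chaperone of Sm proteins, at -0.75 with no overlap between groups, and Strap at 0.20 (limma adjusted p 0.15 and 0.791).

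The other 6 lists, of spliceosome parts and RNA-bound proteins had medians from -0.17 to 0.06. Of 26 hnRNP genes 13 were positive, with Hnrnpa1 at -0.19 and Hnrnpa2b1 at 0.35 (limma adjusted p 0.744 and 0.583). The helicases had a median of -0.17, with Dhx15 at 0.21 and Dhx16 at -0.17, and the Prp19 complex had a median of -0.14, with Bud31 at -0.14 and Cwc15 at 0.21. The list named for U1 and U2 associated proteins, which also holds tri-snRNP proteins such as Txnl4a, had a median of 0.06. In it Txnl4a was at -0.03 and Phf5a, an SF3B subunit, at -0.83 (limma adjusted p 0.973 and 0.13). The remaining proteins of the minor spliceosome had a median of -0.03, with Zmat5 at -0.91 and Zcrb1 at 0.02 (limma adjusted p 0.119 and 0.976). The exon junction complex had a median of 0.05. Its Eif4a3 was at 0.05, and Magoh, of its core, stood at 1230, 969 and 1183 FPKM in Con and 1378, 1973 and 2055 FPKM in DRB (limma adjusted p 0.213). For Srpk1, Strap, Dhx15, Dhx16, Bud31, Txnl4a, Zcrb1 and Eif4a3 the sign of the fold change turned in some settings.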

How the data were processed

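Libraries were made by Smart-Seq2, which amplifies full-length cDNA from an oligo-dT primer, and sequenced as paired ends, per the labels' protocols. The submitters' processing notes name cutadapt 1.16, STAR and the mm10 build; which program computed the values, and with which annotation, was not stated in these sources. Per the file headers, the authors deposited FPKM for each gene, which are relative to each library's total. Steps of 1 fragment in genes with 1 transcript were matched by a length shortened by 140 to 180 bases, with 74.2% to 84.7% of low values within 0.15 of a whole number. Values of short genes therefore lean on that correction. All 66 genes matched GENCODE M21 (GRCm38, the assembly of mm10).

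Genes with at least 1 FPKM in at least 3 libraries were tested with limma 3.58.1 in R 4.3.3 on log2(FPKM + 1), with a mean-variance trend, group as the single term and all 6 libraries. In a simulation on these 11893 genes, log2 changes of 1, 2, 3 and 4 were recovered in 1.6%, 60.8%, 83.6% and 93.6% of cases. False calls made up 5.7%, so small changes were mostly missed in that setting. The changes were put into a small share of genes, all with a mean log2(FPKM + 1) above 2, with normally distributed noise. With other numbers of changed genes, or for genes of lower level, the recovered shares could differ. The members and lists were chosen with earlier results of these data known. Named genes were those that passed, the 3 highest, 3 lowest and 2 most abundant tested genes of each family, and the passing or else 2 most abundant genes of each further list. A gene that this rule names is not reported here and not drawn, though counts and medians include it. All other genes named were chosen after their values were seen. Alternatives changed the pseudocount, filter, scaling, trend, block and libraries. Python 3.11.15 with pandas 2.3.3 and matplotlib 3.10.9 made tables and figures.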

Additional observations from a re-analysis of the deposited data

How the results depend on the processing

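Rsrp1, Rbbp6 and Prpf31 kept their direction in all 17 alternatives, 3 of them chosen after seeing the data, with log2 fold changes of 2.26 to 3.06, 1.62 to 1.90 and -2.14 to -1.82. Over all genes 295 passed, 182 higher and 113 lower. With no filter 6 passed (6 higher, 0 lower; of the splicing genes 0 higher and 0 lower). A pseudocount of 0.1 gave 164 (113 higher, 51 lower). The replicate block gave 171 (127 higher, 44 lower) and kept the same 3 splicing calls. Deviations of same-numbered libraries had r of -0.051 to 0.053, and those of other pairs -0.089 to 0.121. Pairs that share little beyond their group would also give low r, so this check cannot tell whether the numbers pair libraries. Without a mean-variance trend 75 were lower, and without mitochondrial genes 73. Leaving out 1 library gave 47 to 220 (34 to 139 higher, 13 to 81 lower), and 0 to 1 splicing genes lower, the lost call being Prpf31 without Con replicate 1, Con replicate 2 or DRB replicate 1 (log2 fold change -2.14 to -1.88 over the 6 fits). The SR median was 0.65 with median-of-ratios scaling, 0.67 without mitochondrial genes and 0.32 to 0.66 with 1 library left out, and the U2 median was then -0.58 to -0.21. Leaving out mitochondrial genes moved the median of all genes by 0.11. Fits without 1 library also rest on fewer libraries, and the cause of the lower counts was not tested for any setting.

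Of 47 named genes 12 changed sign in some setting, none of them called. Prpf38a was 0.012 with median-of-ratios scaling and 0.035 without mitochondrial genes. Srsf9 was 0.034 with the GC trend removed, 0.16 with the length trend removed, 0.051 with median-of-ratios scaling, 0.024 with upper-quartile scaling and 0.074 without mitochondrial genes, and Txnl4a was 0.15, 0.026, 0.083, 0.056 and 0.11 in the same settings. Dhx16 was 0.088 with the GC trend removed and Bud31 0.047 with the length trend removed. With 1 library left out the ranges were -0.18 to 0.0004 for Prpf38a, -0.84 to 0.19 for Srsf4, -0.27 to 0.14 for Srsf9, -0.086 to 0.26 for Srsf6, -0.042 to 0.38 for Strap, -0.66 to 0.11 for Dhx16, -0.068 to 0.44 for Dhx15, -0.35 to 0.085 for Bud31, -0.16 to 0.23 for Txnl4a, -0.046 to 0.088 for Zcrb1, -0.38 to 0.10 for Srpk1 and -0.092 to 0.16 for Eif4a3.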

Other observations

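Several splicing genes outside the named families stood apart between the groups, and Gemin7, Gemin2, Scaf11 and Cwc22 were chosen after their values were seen. In the SMN list, Gemin7 stood at 77.5, 53.3 and 53.4 FPKM in Con and 29.0, 27.5 and 28.3 FPKM in DRB (log2 fold change -1.07, limma adjusted p 0.0813), and Gemin2 at 111, 137 and 91.1 FPKM in Con and 57.2, 67.8 and 58.2 FPKM in DRB (log2 fold change -0.86, limma adjusted p 0.125). Scaf11, an SR-related protein, stood at 28.2, 22.6 and 39.9 FPKM in Con and 118, 121 and 49.8 FPKM in DRB (log2 fold change 1.57, limma adjusted p 0.0621). Cwc22, which brings Eif4a3 to the spliceosome, stood at 30.6, 26.7 and 31.8 FPKM in Con and 119, 62.4 and 55.6 FPKM in DRB (log2 fold change 1.30, limma adjusted p 0.0689). None of these 4 passed the test over all genes, although their groups did not overlap, as was so for 23.8% of all tested genes.

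Within the tri-snRNP, the level of Prpf31 as a share of that of Prpf3 was 115.3%, 64.1% and 51.2% in the Con libraries and 7.3%, 12.3% and 11.9% in the DRB libraries, each in the order of replicates 1 to 3. The level of Rsrp1 as a share of that of Srsf7 was 6.5%, 3.9% and 7.2% in Con and 55.3%, 11.8% and 14.7% in DRB. Both pairs were chosen after their values were seen and were not tested.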
